A study of Mus musculus with 6 samples.

Results

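The circadian clock genes examined here were Nr1d1, Nr1d2, Dbp, Tef, Per1, Per2, Per3, Cry1, Clock and Bhlhe40, a list of 10 given by name and chosen with earlier results of these data known, and 9 of the 10 could be read. Each gene was read through the probe set that carries its symbol alone in the platform annotation, and Tef, which has 2 such probe sets, through the one with the higher mean signal over all 6 arrays. The only probe set listed for Per2 carries a further symbol as well, so no value is given for Per2. The 9 genes stand among 22180 genes with a probe set of their own and 34472 probe sets in all.

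The arrays held liver RNA of male 12-week-old C57Bl/6J mice with the FAH5981SB point mutation of Fah, which removes a working fumarylacetoacetate hydrolase, the last enzyme of tyrosine breakdown. Both groups carry this mutation, and no array came from mice with intact Fah. Mice of the continuous group (3 arrays) drank NTBC (nitisinone), a drug that blocks tyrosine breakdown at an earlier step, at 8 mg/l without a break. Those of the withdrawal group (3 arrays) had the drug taken away for 7 days from the age of 11 weeks. All mice ate a chow low in tyrosine and phenylalanine, their drinking water with NTBC held 3% dextrose, and they lived under 14 hours of light and 10 hours of dark. The question put to the arrays was how liver transcripts change when NTBC is paused briefly. The hour at which livers were taken, and what the mice had eaten by then, are not given in the sources used here, and their part in the results was not tested. The replicates are called biological in the labels without naming animals, so p-values cover the spread among these arrays, which may be technical.

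The clock of liver cells is a loop of transcription factors. CLOCK pairs with BMAL1 (gene Arntl) and switches on genes that hold an E-box, among them the Per, Cry, Nr1d, Dbp and Bhlhe40 genes, and the PER and CRY proteins then return to the nucleus and block CLOCK and BMAL1. REV-ERB alpha and beta (Nr1d1 and Nr1d2) form a second arm that represses Arntl, Clock, Npas2 and Cry1 through a site called the RORE, which the ROR receptors activate. DBP and TEF, with their relative HLF, carry rhythms to liver metabolism through the D-box, a site that NFIL3 represses. In liver these genes normally rise and fall within each day, and feeding time and glucocorticoids can shift them.

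The promoter windows of 3 members are shown because each holds a site of one of these arms and belongs to a gene whose arrays did not overlap between groups. Each is the 250 bases before the gene's start in RefSeq (GRCm38.p6), written 5′ to 3′ on the gene's strand, with the motif matches in capitals: the E-box CACGTG, the E′-box CACGTT, the D-box TTATGTAA and the RORE half-site AGGTCA, all searched on both strands.
Nr1d1 (chr11:98775378-98775627, minus strand): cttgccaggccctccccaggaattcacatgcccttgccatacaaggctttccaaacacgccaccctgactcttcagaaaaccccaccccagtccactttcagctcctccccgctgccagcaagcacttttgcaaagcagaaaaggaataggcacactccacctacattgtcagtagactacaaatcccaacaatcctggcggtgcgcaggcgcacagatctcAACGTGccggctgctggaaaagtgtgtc
Cry1 (chr10:85185055-85185304, minus strand): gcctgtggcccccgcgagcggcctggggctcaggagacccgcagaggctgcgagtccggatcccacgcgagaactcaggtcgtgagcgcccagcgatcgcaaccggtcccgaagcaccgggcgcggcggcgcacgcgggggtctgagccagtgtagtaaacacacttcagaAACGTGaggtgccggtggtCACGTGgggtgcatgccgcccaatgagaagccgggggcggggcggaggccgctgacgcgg
Per3 (chr4:151044666-151044915, minus strand): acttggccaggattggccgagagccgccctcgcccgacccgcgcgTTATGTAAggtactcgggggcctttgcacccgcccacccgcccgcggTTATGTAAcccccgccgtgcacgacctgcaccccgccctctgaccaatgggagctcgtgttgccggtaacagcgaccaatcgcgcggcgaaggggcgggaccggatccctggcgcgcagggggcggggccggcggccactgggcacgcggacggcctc

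The Nr1d1 window holds 1 E′-box, read on the other strand, that begins 28 bases before the start. The Cry1 window holds an E-box beginning 60 bases and an E′-box beginning 79 bases before the start. The Per3 window holds 2 D-boxes, which begin 205 and 158 bases before the start. Of 32851 promoter windows of this length in the table, 6.02% hold the E-box, 3.85% the E′-box, 0.819% the D-box and 14.0% the RORE half-site. Windows were found for 8 of the 10 members. Per1 has an E-box and a RORE half-site in 1 of its 2 windows, Tef an E-box in both of its windows, Nr1d2 a RORE half-site, and Clock a RORE half-site in 1 of 3 windows, while the single Dbp window holds none of these letters. A match is a run of letters and not a bound site, and the absence of one says nothing of sites elsewhere in the gene.

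After NTBC withdrawal Nr1d1, Dbp and Bhlhe40 fell and Cry1 rose, while Nr1d2, Tef, Per1, Per3 and Clock did not pass the threshold. The fit was limma's moderated test over all probe sets with Benjamini-Hochberg adjustment and a threshold of 0.05. Thus 4 of the 9 members passed, 3 downward and 1 upward, where 9.4% of all probe sets passed in either direction, 3.2% downward and 6.21% upward. Those calls split into 2139 upward and 1102 downward as deposited and 2393 and 708 after median centring, which left the 4 members called. With dim probe sets left out 5 of the 9 members passed, 4 downward and 1 upward. In that fit 4020 of 17236 probe sets passed, 1289 downward and 2731 upward. The median change of the 9 was -0.10 on the log2 scale, and that of all probe sets was -0.08. Arrays of the groups did not overlap for 5 of the 9, against 27.6% of all probe sets. All changes are given as log2 signal after withdrawal minus log2 signal on continuous NTBC, and signals are read within a gene, since probe sets of different genes are not on a common scale.

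**Figure D1:**
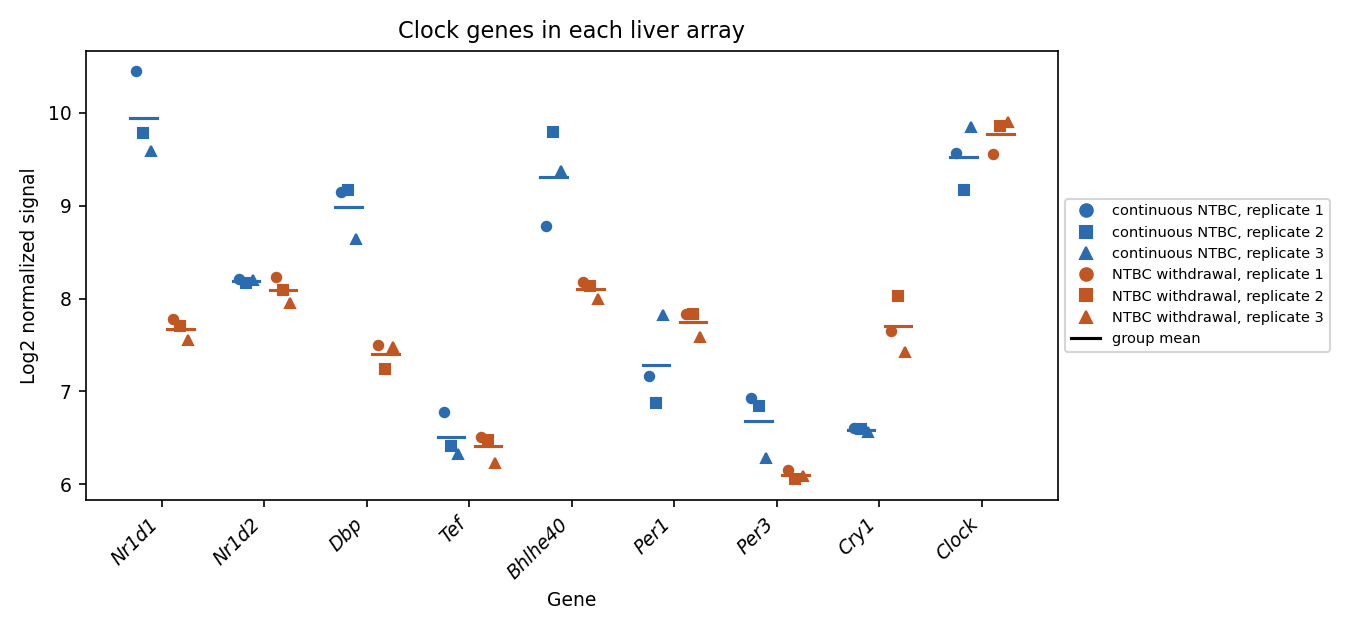
Log2 normalized signal (vertical axis) of the 9 measured clock genes (horizontal axis) in each of the 6 liver arrays, with continuous NTBC in blue, withdrawal in orange, a marker shape for each replicate and a bar for each group mean of 3 arrays. Nr1d1, Dbp, Bhlhe40 and Per3 lie lower and Cry1 higher in all 3 withdrawal arrays, whereas the arrays of the groups overlap for Nr1d2, Tef, Per1 and Clock.

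Among the repressors that act through the RORE, Nr1d1, which encodes REV-ERB alpha, had log2 signals of 10.45, 9.78 and 9.59 on continuous replicates 1 to 3 and of 7.78, 7.70 and 7.55 on withdrawal replicates 1 to 3. The 3 withdrawal arrays lay close together and 1.81 below the lowest continuous array. Its mean went from 9.94 ± 0.45 to 7.68 ± 0.12 (SD, n = 3 each), a fall of 4.80-fold (log2 change -2.26, SE 0.22, limma adjusted p = 1.64e-04). Only 0.162% of all probe sets had a more negative change. Without any 1 array, the change of Nr1d1 lay between -2.44 and -2.01.

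Nr1d2, which encodes the related receptor REV-ERB beta, had log2 signals of 8.21, 8.17 and 8.20 on continuous NTBC and 8.23, 8.09 and 7.95 after withdrawal. The groups overlapped, and the change was -0.10 with a 95% confidence interval from -0.42 to 0.22 (limma adjusted p = 0.711), which does not include a fall of the size seen for Nr1d1. The change of Nr1d1 minus that of Nr1d2, taken within each array, was -2.16 (SE 0.26), with no overlap between groups. An exact two-sided permutation test over the 6 arrays gave p = 0.1, the smallest value that 3 against 3 arrays allow, and 0.25 after adjustment over 5 pairs of related genes. Part of the Nr1d1 gene overlaps Thra, a thyroid hormone receptor gene, in RefSeq. Thra had a change of -0.51 (SE 0.19, limma adjusted p = 0.134), with signals of 6.80, 6.24 and 6.16 on continuous NTBC and 5.77, 6.01 and 5.89 after withdrawal. Probe positions were not used here, and a contribution of one transcript to the other's signal was not tested.

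Among the output factors that act through the D-box, Dbp had log2 signals of 9.15, 9.17 and 8.64 on continuous NTBC and 7.50, 7.24 and 7.48 after withdrawal. All withdrawal arrays lay at least 1.14 below the continuous ones, of which replicate 3 was the lowest. The mean went from 8.99 ± 0.30 to 7.41 ± 0.14, a fall of 2.99-fold (log2 change -1.58, SE 0.18, limma adjusted p = 5.07e-04). Dbp overlaps Sphk2, a sphingosine kinase gene, in RefSeq, whose change was -0.15 (limma adjusted p = 0.667).

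Tef, a relative of Dbp, had log2 signals of 6.78, 6.41 and 6.32 on continuous NTBC and 6.51, 6.48 and 6.23 after withdrawal. The groups overlapped and the change was -0.10 (95% confidence interval -0.48 to 0.28, limma adjusted p = 0.776). The second Tef probe set had a change of 0.17 (SE 0.16, limma adjusted p = 0.563), and the sign of the Tef change turned under 4 of 15 alternative settings. Hlf, the third activator of this family, had a change of -0.33 (SE 0.20) and did not pass. The change of Dbp minus that of Tef was -1.48 (SE 0.20), with no overlap between groups (exact two-sided permutation p = 0.1, adjusted p = 0.25 over the 5 pairs). Nfil3, which represses the same sites, had signals of 7.19, 7.20 and 7.21 on continuous NTBC and 7.60, 7.77 and 7.44 after withdrawal. Its arrays did not overlap, but the change of 0.40 (SE 0.15) did not pass (limma adjusted p = 0.127).

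Bhlhe40, which encodes DEC1, a repressor that binds E-boxes, had log2 signals of 8.78, 9.79 and 9.37 on continuous NTBC and 8.18, 8.13 and 8.00 after withdrawal. The continuous arrays were spread over 1.01 and the withdrawal arrays over 0.18, with a gap of 0.60 between the groups. The mean went from 9.31 ± 0.51 to 8.10 ± 0.09, a fall of 2.31-fold (log2 change -1.21, SE 0.23, limma adjusted p = 0.00877). Without continuous replicate 2, its brightest array, the change was -0.97 and still passed. Bhlhe41, the close relative DEC2, had signals of 5.94, 5.81 and 4.68 on continuous NTBC and 4.51, 4.73 and 4.11 after withdrawal. Continuous replicate 3 lay below the highest withdrawal array, and the change of -1.03 (SE 0.31) did not pass (limma adjusted p = 0.0663). Without that array it was -1.42 with adjusted p = 0.00357, while leaving out any other 1 array gave adjusted p from 0.102 to 0.215. The Bhlhe41 signal was dim, and under the lower quartile of withdrawal replicate 3. The change of Bhlhe40 minus that of Bhlhe41 was -0.18 (SE 0.56), with overlapping arrays (exact two-sided permutation p = 0.8, adjusted p = 0.8 over the 5 pairs).

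Of the PER and CRY repressors, Cry1 was the member that rose. Its log2 signals were 6.60, 6.59 and 6.56 on continuous NTBC and 7.65, 8.03 and 7.42 after withdrawal. The continuous arrays agreed within 0.04, and the lowest withdrawal array stood 0.82 above them. The mean went from 6.58 ± 0.02 to 7.70 ± 0.31, a rise of 2.17-fold (log2 change 1.12, SE 0.18, limma adjusted p = 0.00316).

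Cry2, the second cryptochrome and not among the 10, also rose, from 7.28, 7.20 and 6.81 to 8.14, 7.92 and 7.73 (log2 change 0.83, SE 0.18, limma adjusted p = 0.0160). Its groups did not overlap, but adjusted p was 0.0529 with continuous replicate 3 left out, 0.0916 with withdrawal replicate 1 left out and 0.0592 with withdrawal replicate 2 left out. The changes of Cry1 and Cry2 differed by 0.28 (SE 0.22), with overlapping arrays (exact two-sided permutation p = 0.3, adjusted p = 0.375 over the 5 pairs).

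Per1, a period gene that glucocorticoids can induce directly, had log2 signals of 7.17, 6.87 and 7.82 on continuous NTBC and 7.83, 7.83 and 7.59 after withdrawal. Continuous replicate 3 stood at the level of the withdrawal arrays and the other continuous arrays below them. The change was 0.46 (SE 0.23, limma adjusted p = 0.252), and without continuous replicate 3 it was 0.73 and passed (adjusted p = 0.0413).

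Per3, a period gene of the D-box group, had log2 signals of 6.93, 6.84 and 6.28 on continuous NTBC and 6.15, 6.05 and 6.09 after withdrawal. The groups did not overlap, with continuous replicate 3 only 0.13 above the highest withdrawal array, and the change of -0.59 (SE 0.19) did not pass (limma adjusted p = 0.0817). Without continuous replicate 3 it was -0.79 and passed (adjusted p = 0.0184). Per3 overlaps Uts2, the urotensin 2 gene, in RefSeq, whose change was -0.35 (limma adjusted p = 0.229). The change of Per1 minus that of Per3 was 1.05 (SE 0.48), with overlapping arrays (exact two-sided permutation p = 0.2, adjusted p = 0.333 over the 5 pairs).

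Clock, the activator among the members, had log2 signals of 9.57, 9.17 and 9.85 on continuous NTBC and 9.56, 9.86 and 9.90 after withdrawal. The groups overlapped, and the change was 0.24 (95% confidence interval -0.19 to 0.68, limma adjusted p = 0.491). Arntl, the partner of Clock and a target of REV-ERB repression, had signals of 7.30, 6.40 and 7.28 on continuous NTBC and 7.29, 7.79 and 7.59 after withdrawal. Its change was 0.56 (SE 0.25, limma adjusted p = 0.202), and without continuous replicate 2, the lowest array, it was 0.27. Npas2, which can stand in for Clock, had a change of 0.03 (SE 0.22), and Rora, which activates RORE genes, one of 0.39 (SE 0.16, limma adjusted p = 0.160) with no overlap between groups. Thus among the measured targets of REV-ERB named above, Cry1 passed the threshold and Arntl, Clock and Npas2 did not.

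**Figure D2:**
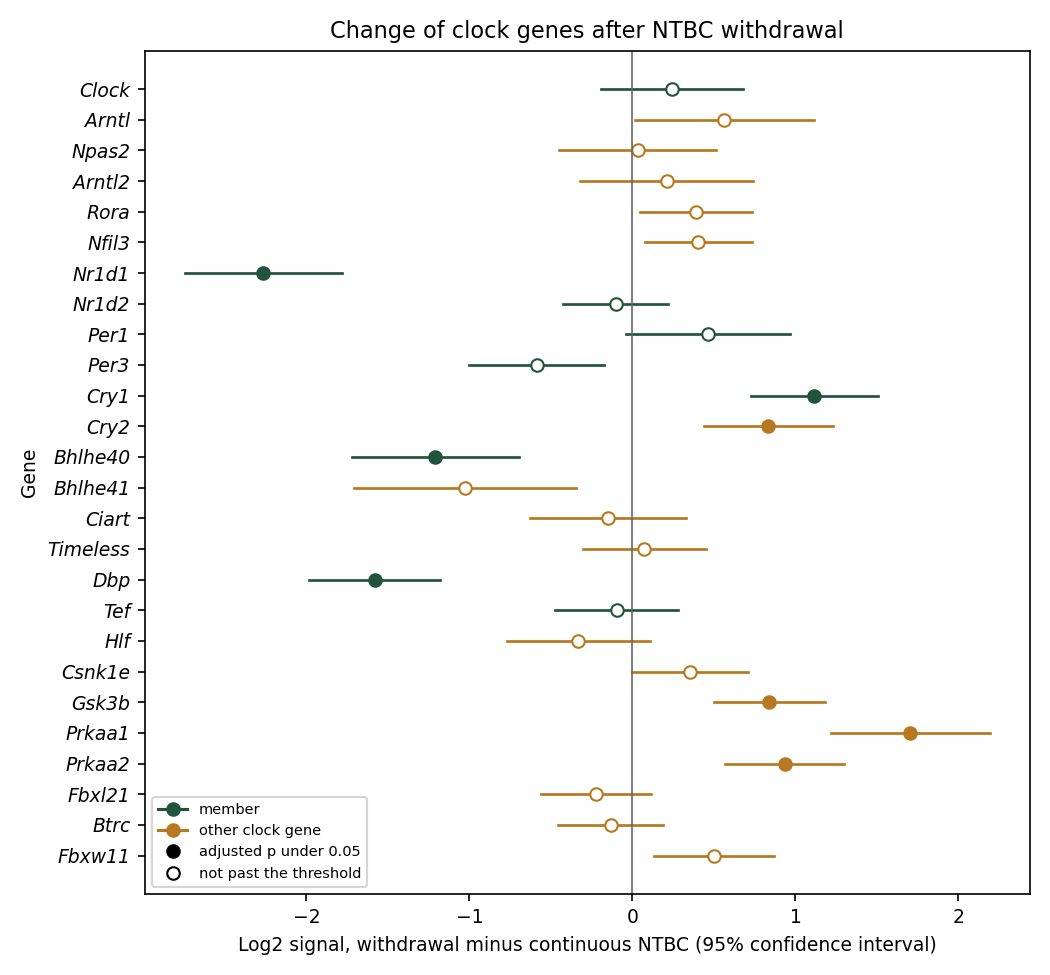
Log2 signal after withdrawal minus continuous NTBC (horizontal axis) for the 26 measured clock genes (vertical axis), with 95% confidence intervals from the limma fit on 3 arrays per group and filled points for adjusted p under 0.05. Nr1d1 (-2.26), Dbp (-1.58) and Bhlhe40 (-1.21) lie on the lower side, and Cry1 (1.12), Cry2, Gsk3b, Prkaa1 and Prkaa2 on the higher side.

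Beside the members, 20 further clock genes were listed and 17 of them measured. Of the 17, 4 rose and 0 fell with limma, against 6.21% upward and 3.2% downward among all probe sets, and the median change was 0.35. With dim probe sets left out, 5 of the 14 genes still tested rose, where 2731 of 17236 probe sets rose. The 4 that rose in the fit on all probe sets were Cry2 and 3 kinase genes. Prkaa1 and Prkaa2, the catalytic subunits of AMPK, which marks cryptochromes for degradation, rose by 1.70 (SE 0.22, limma adjusted p = 0.00103) and 0.93 (SE 0.17, limma adjusted p = 0.00614). The Prkaa1 signals were 7.55, 6.74 and 6.77 on continuous NTBC and 8.86, 8.71 and 8.60 after withdrawal, the largest change among the 26 measured clock genes in the upward direction. Gsk3b, a kinase that acts on REV-ERB alpha and other clock proteins, rose by 0.84 (SE 0.15, limma adjusted p = 0.00748).

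Of the 17 measured genes of this list 13 did not pass, 7 of which have not been described above. Csnk1e, a kinase of PER proteins, had a change of 0.35, and Btrc and Fbxw11, which lead PER proteins to degradation, of -0.13 and 0.50. Fbxl21, a ligase of cryptochromes, had a change of -0.22, Ciart, a repressor of CLOCK and BMAL1, of -0.15, Timeless of 0.07 and Arntl2, a relative of Arntl, of 0.21. Limma adjusted p of these 7 ran from 0.0923 for Fbxw11 to 0.832 for Timeless.

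**Figure D3:**
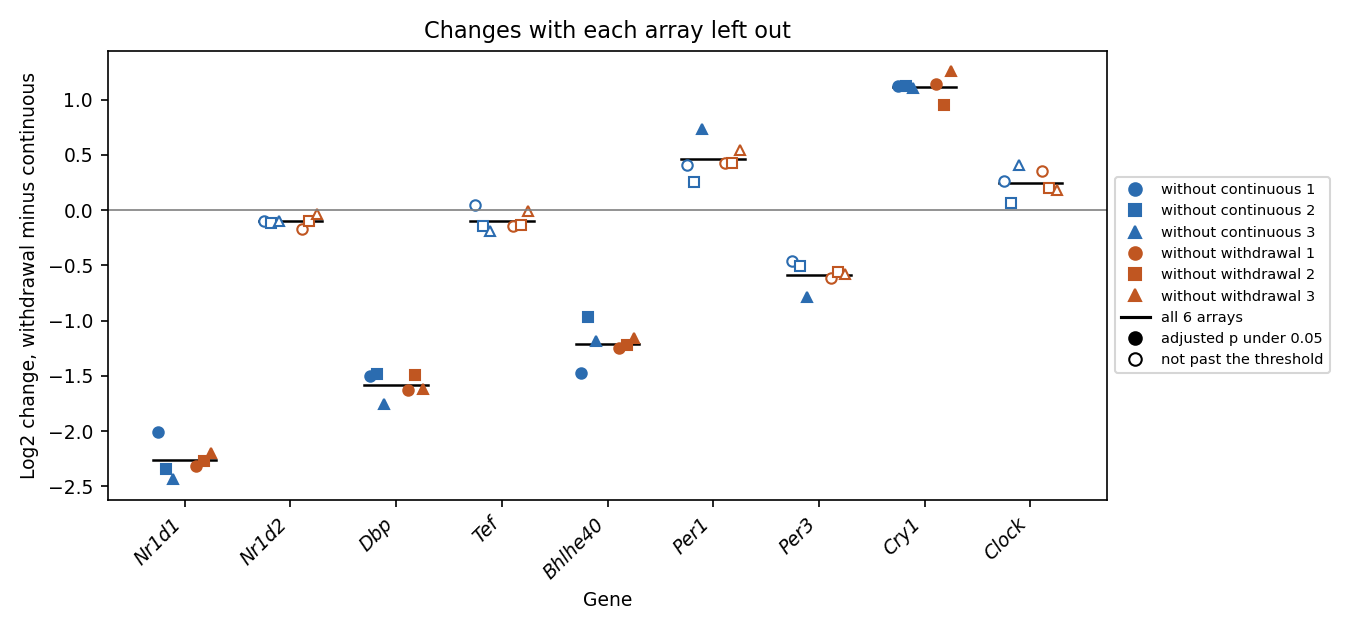
Log2 change of each measured member (horizontal axis) when each of the 6 arrays is left out in turn, with the vertical axis as withdrawal minus continuous NTBC, black bars for all 6 arrays and filled points for adjusted p under 0.05. Nr1d1, Dbp, Bhlhe40 and Cry1 stay filled in every case, and Per1 and Per3 are filled only without continuous replicate 3.

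Like most probe sets of these arrays, most members varied more among the continuous than among the withdrawal arrays. The range over 3 arrays was narrower after withdrawal for 7 of the 9, with a median range of 0.65 on continuous NTBC and 0.26 after withdrawal. Among all probe sets 61.0% had the narrower range after withdrawal, and the median ranges were 0.40 and 0.32. The exceptions were Nr1d2 and Cry1, whose continuous arrays each lay within 0.04. Within the continuous group replicate 3 was lowest for Nr1d1, Dbp, Tef, Per3 and Cry1 and highest for Per1 and Clock, and replicate 2 was lowest for Per1, Clock and Nr1d2 and highest for Dbp and Bhlhe40. These are descriptions of single arrays, with no test of the spread.

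The pattern of each member over the 6 arrays was set beside those of the other 25 measured clock genes by the root mean square difference of log2 signals, each centred on its own mean. Nr1d1 was nearest to Dbp (0.41), Dbp to Bhlhe40 (0.41), and Bhlhe40 to Dbp (0.41). Per3 was nearest to Hlf (0.24), Cry1 to Prkaa2 (0.24), Per1 to Clock (0.23) and Clock to Timeless (0.16). Nr1d2 and Tef were nearest to Btrc (0.09 and 0.10), all 3 being genes with small changes. A wider search took genes with a probe set of their own, and passed over those with predicted, Riken or pseudogene names. The patterns nearest to that of Nr1d1, the member with the largest change, were those of Nudt7, a peroxisomal coenzyme A hydrolase (0.08), the cytokine gene Il18 (0.19), Cyp2d13 (0.20), Cmah (0.20) and Rdh16 (0.21). Nudt7 had signals of 11.34, 10.76 and 10.62 on continuous NTBC and 8.58, 8.67 and 8.59 after withdrawal.

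Genes of liver known to follow the clock went both ways. Of 12 listed, 11 were measured, of which 3 rose and 2 fell, with a median change of 0.35, where 6.21% of all probe sets rose and 3.2% fell. With dim probe sets left out 5 of the 11 rose and 2 fell, where 2731 of 17236 probe sets rose and 1289 fell. Wee1, a kinase that holds back mitosis, had signals of 5.38, 5.85 and 4.86 on continuous NTBC and 7.99, 7.89 and 7.75 after withdrawal, a rise of 5.71-fold (limma adjusted p = 1.25e-04). Nampt, which makes the NAD precursor NMN, had signals of 7.88, 7.77 and 7.57 on continuous NTBC and 10.03, 10.11 and 9.77 after, a rise of 4.69-fold (limma adjusted p = 3.31e-05). All 3 withdrawal arrays lay above all 3 continuous arrays for Wee1 and Nampt. Ppard, a nuclear receptor of fat metabolism, rose by 0.81 (SE 0.15), with adjusted p = 0.0501 once withdrawal replicate 1 was left out.

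Avpr1a, the vasopressin receptor of liver, fell from 8.76, 8.32 and 7.86 to 6.60, 6.75 and 6.74, a 3.07-fold difference (limma adjusted p = 0.00118). Gys2, the glycogen synthase of liver and a direct target of CLOCK, fell from 10.54, 10.61 and 10.41 to 9.59, 9.47 and 9.32, a 2.08-fold difference (limma adjusted p = 0.00165). The other 6 did not pass: Coq10b (0.54), Insig2 (0.61), Usp2 (0.35), Lpin1 (-0.13), Nr1i3 (-0.38) and Noct (-0.31). Coq10b (limma adjusted p = 0.0574) passed under 7 of 15 alternative settings and Insig2 (limma adjusted p = 0.0924) under 3 of 15. Noct, which encodes the rhythmic phosphatase nocturnin, stood at 7.72 on continuous replicate 3 against 5.39 and 5.83 on replicates 1 and 2 and 6.18, 5.98 and 5.86 after withdrawal. Per1 (7.82), Clock, and the output genes Lpin1, Insig2 and Coq10b were also highest among the continuous arrays on that replicate. For Insig2 the margin was narrow (9.09 against 9.05 on replicate 1). The output genes Wee1, Nampt, Gys2, Avpr1a and Nr1i3 were instead lowest among the continuous arrays on replicate 3.

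**Figure D4:**
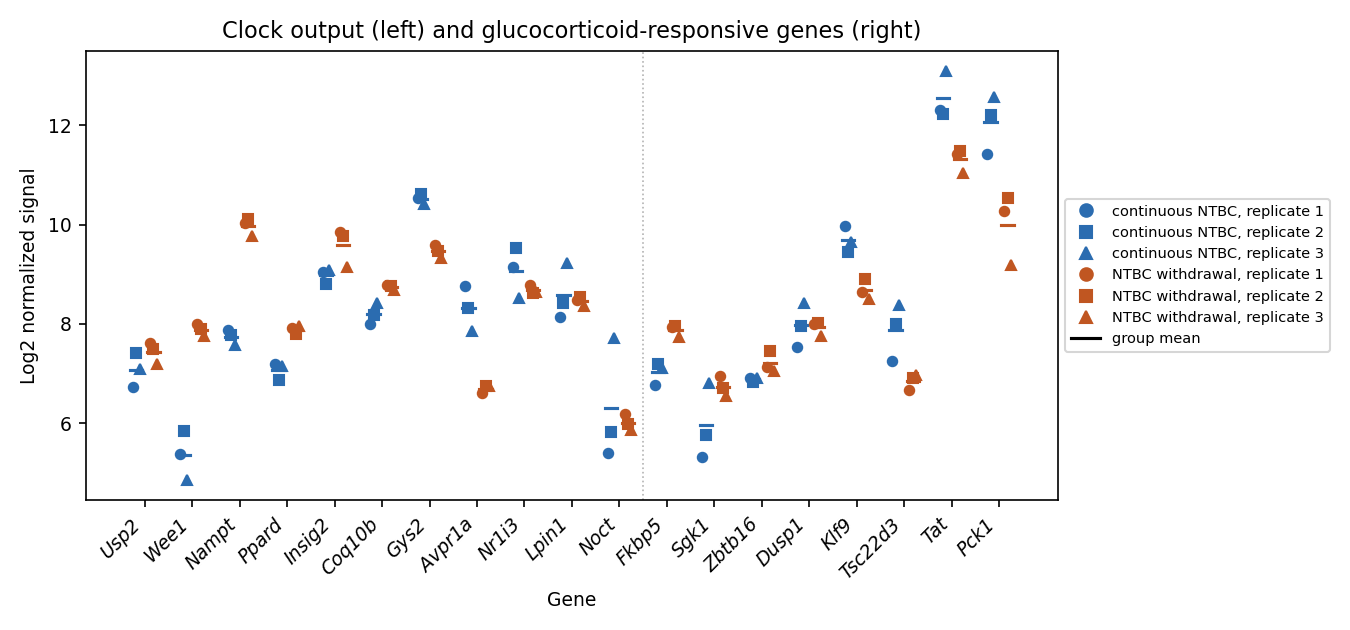
Log2 normalized signal (vertical axis) of 11 clock output genes, left of the dotted line, and 8 glucocorticoid-responsive genes, right of it, in each of the 6 arrays, with continuous NTBC in blue, withdrawal in orange and bars for the group means. Of the output genes, Wee1, Nampt, Ppard, Insig2 and Coq10b lie higher and Gys2 and Avpr1a lower in all 3 withdrawal arrays. Of the glucocorticoid-responsive genes, Fkbp5 and Zbtb16 lie higher and Klf9, Tsc22d3, Tat and Pck1 lower in all 3. The groups do not overlap for 27.6% of all probe sets. Among the continuous arrays, Noct, Lpin1, Insig2, Coq10b, Sgk1, Tsc22d3, Dusp1, Pck1 and Tat are highest on replicate 3. Wee1, Nampt, Gys2, Avpr1a and Nr1i3 are lowest on that replicate.

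Genes that glucocorticoids induce were read beside Per1 because these hormones can set the phase of liver clocks. All 8 listed were measured, and 1 rose and 4 fell, with a median change of -0.52, beside the same 6.21% upward and 3.2% downward of all probe sets. With dim probe sets left out 1 rose and 4 fell as well, where 2731 of 17236 probe sets rose and 1289 fell. Fkbp5, a cochaperone of the glucocorticoid receptor, rose by 0.85 (SE 0.17, limma adjusted p = 0.00974), though not without withdrawal replicate 1 (adjusted p = 0.0566), where 3 of the 8 passed, 0 of them upward. Pck1, the enzyme that opens gluconeogenesis, fell by 2.07 (SE 0.36), Tat, the first enzyme of tyrosine breakdown, by 1.23 (SE 0.24) and the transcription factor gene Klf9 by 1.01 (SE 0.18). Tsc22d3, an anti-inflammatory mediator, fell by 1.03 (limma adjusted p = 0.0312), and that call was lost without continuous replicate 2 or 3 or any 1 withdrawal array (highest adjusted p = 0.125). The Tsc22d3 call was also lost with signals raised to the lower quartile of their array (limma adjusted p = 0.0512). Sgk1 (0.77), Zbtb16 (0.34) and Dusp1 (-0.04) did not pass. Sgk1 stood at 6.81 on continuous replicate 3 against 5.31 and 5.76 on the other continuous arrays, and passed without that array (adjusted p = 0.00782). Tsc22d3, Dusp1, Pck1 and Tat were also highest among the continuous arrays on replicate 3.

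Since whole liver was measured, fewer cells of a type and less RNA per cell cannot be told apart. Of 7 hepatocyte markers 1 fell, Cps1 of the urea cycle (-1.08), and 0 rose, and Alb, which encodes serum albumin, had signals from 14.11 to 14.24. Summed signals of the 7 lay between 57807 and 62377 on continuous NTBC and between 52859 and 57226 after withdrawal. Within these sums Cps1 alone went from between 6985 and 8540 to between 3541 and 4124. The log2 changes of the other hepatocyte markers ran from -0.23 (Apoa1) to 0.14 (Asgr1). Of 6 sinusoidal endothelial markers, Clec4g and Lyve1 rose and 5 had arrays that did not overlap, against 9.4% called and 27.6% without overlap among all probe sets. The summed signals of these markers went from between 1133 and 1390 to between 1795 and 1942. Of 8 macrophage, 5 stellate cell, 4 bile duct and 4 lymphocyte markers measured, 0 passed in either direction with limma, and their summed signals overlapped between groups. Of 4 neutrophil markers 1 fell, Retnlg, whose signal was under the lower quartile of every array. The part of these markers in the changes of clock genes was not tested.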

How the data were processed

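Liver RNA of Fah-mutant mice was measured on 6 Affymetrix whole-transcript arrays, 3 for continuous NTBC and 3 for withdrawal, with 100 ng of total RNA per array per the labels. The authors deposited normalized intensities, not logged, with 1 value for each probe set on each array. The submitters' processing notes name Transcriptome Analysis Console, and its version, the background correction, the normalization and the genome build are not given in the sources used here. Nothing in the table marks detection, so a low signal is not absence and its fold can be compressed. The number of arrays limits the precision.

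Deposited intensities were taken as log2 without further normalization and fitted by lmFit and eBayes of limma 3.58.1 under R 4.3.3 (default settings, withdrawal minus continuous, two-sided, no filter), and p-values were adjusted over all 34472 probe sets. Between 0.748% and 1.80% of values were identical between any 2 arrays, which leaves no duplicated array. The platform annotation gives 1 symbol for 23521 probe sets, several for 1814 and none here for 9137, and no gene was named from one with several. The fit was tested on simulated data. The members, the lists and the rule for named genes (all members, other clock genes, and output and glucocorticoid-responsive genes past the threshold) were chosen with earlier results of these data known. Output and glucocorticoid-responsive genes that did not pass, marker genes, genes overlapping a member, and the 5 pairs of related genes were picked for the text after values were seen. Alternatives were quantile normalization, median centring, dim probe sets left out, the replicate number as a block, array weights, trend and robust priors, probe sets with 1 symbol, a floor at each array's lower quartile, averaging over a gene's probe sets, a 2-fold threshold, and each array left out.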

Additional observations from a re-analysis of the deposited data

How the results depend on the processing

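The 4 members called kept direction and threshold under all 15 refits, and the count of members called ran from 4 to 6 without 1 array, 6 being reached without continuous replicate 3. Of 135 values over members and settings, 128 kept direction and side, 3 passed where the fit on all arrays had not, and 4 turned sign. The last were Tef values, none past the threshold: 0.0033 with median centring, 0.0040 with array weights, 0.037 as the mean of its probe sets, and -0.19 to 0.042 over the left-out arrays (above 0 without continuous replicate 1). Per3 also passed with dim probe sets left out (adjusted p = 0.0411). Of 252 values of other clock genes 7 turned sign, none past the threshold: Npas2 at -0.025 with array weights, and over the left-out arrays Npas2 (-0.16 to 0.19), Arntl2 (-0.0083 to 0.38), Ciart (-0.39 to 0.053) and Timeless (-0.085 to 0.19). The cause was not tested. At a 2-fold threshold 4 members, 1 other clock gene and 1178 of all probe sets were called. Leaving out 1 array gave 3 to 5 other clock genes, 4 to 6 output genes, 3 to 5 glucocorticoid-responsive genes and 1454 to 4210 of all probe sets, and array weights gave 6 other clock genes, 7 output genes and 5588 of all probe sets. Leaving out dim probe sets gave 5 of the 14 other clock genes still tested and 7 of 11 output genes. The same setting called 4020 of the 17236 probe sets kept. Fbxw11 passed with dim probe sets left out (adjusted p = 0.0462), with array weights (0.0287) and without continuous replicate 1 (0.0392), Rora with array weights (0.0493), and Bhlhe41 among probe sets with 1 symbol (0.0428).

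Same-numbered arrays correlated at 0.16, -0.12 and 0.22 in their deviations from group means over all probe sets, and not every array correlated best with its own number, so the numbers were not taken as pairs. With the replicate number as a block 4 members, 5 other clock genes (Bhlhe41 joining with adjusted p = 0.0112) and 3298 of all probe sets were called.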
